A study of Mus musculus with 8 samples.

Results

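Kruppel-like factors (Klf) were followed in STHdh striatal cells after transfection with Bcl11b. The 10 genes Klf2, Klf3, Klf4, Klf5, Klf6, Klf7, Klf9, Klf10, Klf13 and Klf16 were taken by gene symbol from the array table, which gave 10 of 18120 symbols and 13 of 25697 probes. Of these probes, 9 carry a current symbol in the table, and the other 4 carry the older symbols Copeb (Klf6, 2 probes), Bteb1 (Klf9) and Tieg1 (Klf10). STHdh cells are an immortalized line of wild-type striatal progenitors from embryonic mouse tissue, so both groups are 1 cell line and not striatal tissue. In the Bcl11b group, 4 sets of cells were transfected with a pcDNA3.1 plasmid carrying the cDNA of mouse Bcl11b, a zinc finger transcription factor, and in the mock group 4 sets received the empty pcDNA3.1 plasmid. The labels also call the mock cells wild-type. RNA was taken on the second day, and each set was hybridized to 1 Illumina MouseRef-8 v2 array. Transfection was transient, so each sample mixes cells with and without plasmid, and a change in fewer cells cannot be told apart from a smaller change in all cells.

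Kruppel-like factors are transcription factors that bind GC-rich and CACCC-type DNA sites through a conserved block of C-terminal zinc fingers. The family is usually sorted by the partners of the remaining protein. Klf3, Klf8 and Klf12 recruit the corepressor CtBP, Klf9, Klf10, Klf11, Klf13, Klf14 and Klf16 bind the corepressor Sin3a, and Klf2, Klf4, Klf5, Klf6 and Klf7 mostly act as activators that also have repressing functions. Members often regulate one another, and in neurons they are known for controlling neurite growth and maturation.

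Before normalization the median signal of the mock arrays (31.6 to 53.9) was above that of the Bcl11b arrays (20.1 to 30.2), while the number of probes detected was similar (10121 to 10784 and 10342 to 10644). A probe was called detected on an array where its deposited detection p-value was under 0.01. The only Bcl11b probe was not detected on any array, and the overexpression itself cannot be read from these arrays. Of 10 probes for 8 medium spiny neuron markers, 9 were not detected on any array, and the remaining one, for Pde10a, was detected on 3 mock arrays and 1 Bcl11b array. No probe for endothelial (6 probes) or oligodendrocyte (6 probes) markers was detected. Of 7 probes for neural progenitor markers, 5 were detected on all 8 arrays, for vimentin, nestin and Sox2, and the Pax6 and Msi1 probes on none. Among the detected progenitor probes, 1 nestin probe was higher (log2 fold change 0.43, limma adjusted p = 0.304), while the other, brighter nestin probe was at -0.00071. Of the 2 Sox2 probes 1 was lower (-0.71, limma adjusted p = 0.438), while the other was at 0.20. Of 6 fibroblast probes 3 were detected on no array, Col1a1 and Pdgfrb were detected on all 8, and 1 Col3a1 probe on 7. Pdgfrb was lower (-0.49, limma adjusted p = 0.309), and Col1a1 (0.22) and this Col3a1 probe (-0.87) did not pass. Of 7 microglia probes 6 were detected on no array, and the remaining one, for Cd68, was detected on 2 Bcl11b arrays and no mock array. Of 7 neuron probes 4 were detected on no array, and a Map2 probe was detected on all 8 (0.21, limma adjusted p = 0.683). Of 8 astrocyte probes 7 were detected on no array, and the remaining one, for Slc1a3, was detected on 3 mock arrays and 1 Bcl11b array. The part of these markers in the Klf results was not tested. The summed signal of the progenitor list ranged from 23638 to 27627 on mock and from 19919 to 27653 on Bcl11b arrays. Bcl11b replicate 4 had the lowest mean correlation with the other arrays of its group (0.932, against 0.971 to 0.972 for the other 3).

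On its 1 probe, Klf3 mRNA was lower in Bcl11b-transfected than in mock-transfected cells, and Klf3 was the only member past the adjusted threshold. Its limma adjusted p was above 0.10 in 12 of 18 alternative settings, while the direction was the same in each. Of the 13 probes, 12 were detected on all 8 arrays and the Klf10 probe on none. Klf16 passed the unadjusted threshold as higher. The other detected members, Klf2, Klf4, Klf5, Klf6, Klf7, Klf9 and Klf13, did not pass either threshold. The test was limma on log2 signals after quantile normalization with a floor of 1, with p-values adjusted over the whole array by the Benjamini-Hochberg method. At an unadjusted p-value under 0.05 with a log2 change of at least 0.32, 1 member probe was higher (Klf16) and 1 was lower (Klf3), which is 16.7% of the 12 detected probes. Among all 9360 probes detected on all arrays it was 14.3% (10.5% lower and 3.8% higher), and among all 25697 probes 9.02% (5.81% lower and 3.2% higher). The share of members changed is therefore close to the background, and the family as a whole does not stand apart by this count. At an adjusted p-value under 0.10, 1 of the 12 passed, where 1.57% of the probes detected on all arrays and 0.981% of all probes did (0.627% lower and 0.354% higher). The median log2 fold change of the 12 probes was 0.12, beside -0.026 for the 9360 probes.

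The regions upstream of 3 members are printed to show the sites the family itself binds and how unequally they are spread: Klf3, the member that fell, Klf4, whose probes varied most, and Klf9, which did not pass the threshold. Of the 10 members, 7 had an entry in the RefSeq promoter table for GRCm38.p6. Each sequence gives the 250 bases before the annotated start, 5′ to 3′ on the gene's strand. The regions are chr5:64803271-64803520 (plus strand), chr4:55532476-55532725 (minus strand) and chr19:23140976-23141225 (plus strand). Capitals mark every match, on either strand, to CCNCNCCC, the CACCC-type Klf site, or to GGGCGG, the GC box, and these patterns overlap one another.
Klf3: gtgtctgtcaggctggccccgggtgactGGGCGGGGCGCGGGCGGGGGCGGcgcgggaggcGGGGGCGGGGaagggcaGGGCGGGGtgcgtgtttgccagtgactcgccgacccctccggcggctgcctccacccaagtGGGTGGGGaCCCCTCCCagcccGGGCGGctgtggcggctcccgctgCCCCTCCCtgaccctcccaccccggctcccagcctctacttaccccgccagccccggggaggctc
Klf4: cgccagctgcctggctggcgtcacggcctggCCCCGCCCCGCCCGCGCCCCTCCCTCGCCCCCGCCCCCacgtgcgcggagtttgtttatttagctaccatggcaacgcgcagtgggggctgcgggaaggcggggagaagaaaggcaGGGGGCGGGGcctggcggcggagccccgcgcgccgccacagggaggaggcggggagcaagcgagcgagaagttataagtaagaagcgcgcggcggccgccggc
Klf9: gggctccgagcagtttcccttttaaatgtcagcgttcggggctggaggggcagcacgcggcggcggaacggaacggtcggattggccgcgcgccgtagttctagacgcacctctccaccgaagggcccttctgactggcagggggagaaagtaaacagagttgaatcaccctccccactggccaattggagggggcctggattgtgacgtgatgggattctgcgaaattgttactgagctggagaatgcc
The Klf3 region held 10 CACCC-type matches and 6 GC boxes, counting overlapping matches. As many CACCC-type matches occurred in 0.95% of 32841 annotated upstream regions of this length, and 45.9% held at least 1. For the GC box, 0.883% held as many as Klf3 and 32.7% held at least 1. The Klf4 region had 9 CACCC-type matches and 4 GC boxes, Klf7 had 8 and 1, Klf13 5 and 3, Klf2 4 and 2, and Klf6 2 and 1. The Klf9 region had neither. It held 3 matches to CCAAT, of which 33.9% of all regions held at least 1. None of the 7 regions held TATAAA, which 12.4% of all regions did. The GC content was 78.4% for Klf3, 74% for Klf4 and 59.6% for Klf9, against a median of 52.4%. These matches describe the letters only.

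Klf3, also known as basic Kruppel-like factor, represses transcription through CtBP and is itself activated by other Klf proteins in blood cells. Its probe (ILMN_2432110) had log2 signals of 10.38, 10.46, 10.27 and 10.49 on mock replicates 1 to 4 and of 9.81, 9.90, 9.45 and 9.79 on Bcl11b replicates 1 to 4. The highest Bcl11b array, replicate 2, was still under the lowest mock array, replicate 3. The deposited signals, before normalization, were 2032, 1193, 1544 and 1908 on mock arrays and 746, 718, 399 and 788 on Bcl11b arrays, where the arrays as a whole were also brighter in the mock group. The group means were 10.40 ± 0.096 (SD, n = 4) and 9.74 ± 0.19 (SD, n = 4), a decrease of 1.58-fold. On the log2 scale this was -0.66 with a standard error of 0.11, and the limma adjusted p was 0.0765. Of all probes detected on all arrays, 7.38% had every Bcl11b array below every mock array and 2.5% had every one above (9.88% in all). The unadjusted p for Klf3 stayed under 0.05 in all 18 alternative settings tried, with log2 fold changes from -1.35 to -0.57. The adjusted p stayed under 0.10 in 6 of them and was above it in 12 (range 0.0417 to 0.227), while the direction was the same in each. It was lost on leaving out 1 array in 7 of 8 cases (Bcl11b replicate 3 was the exception), the adjusted p then being between 0.101 (without mock replicate 2) and 0.227 (without mock replicate 4).

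**Figure D1:**
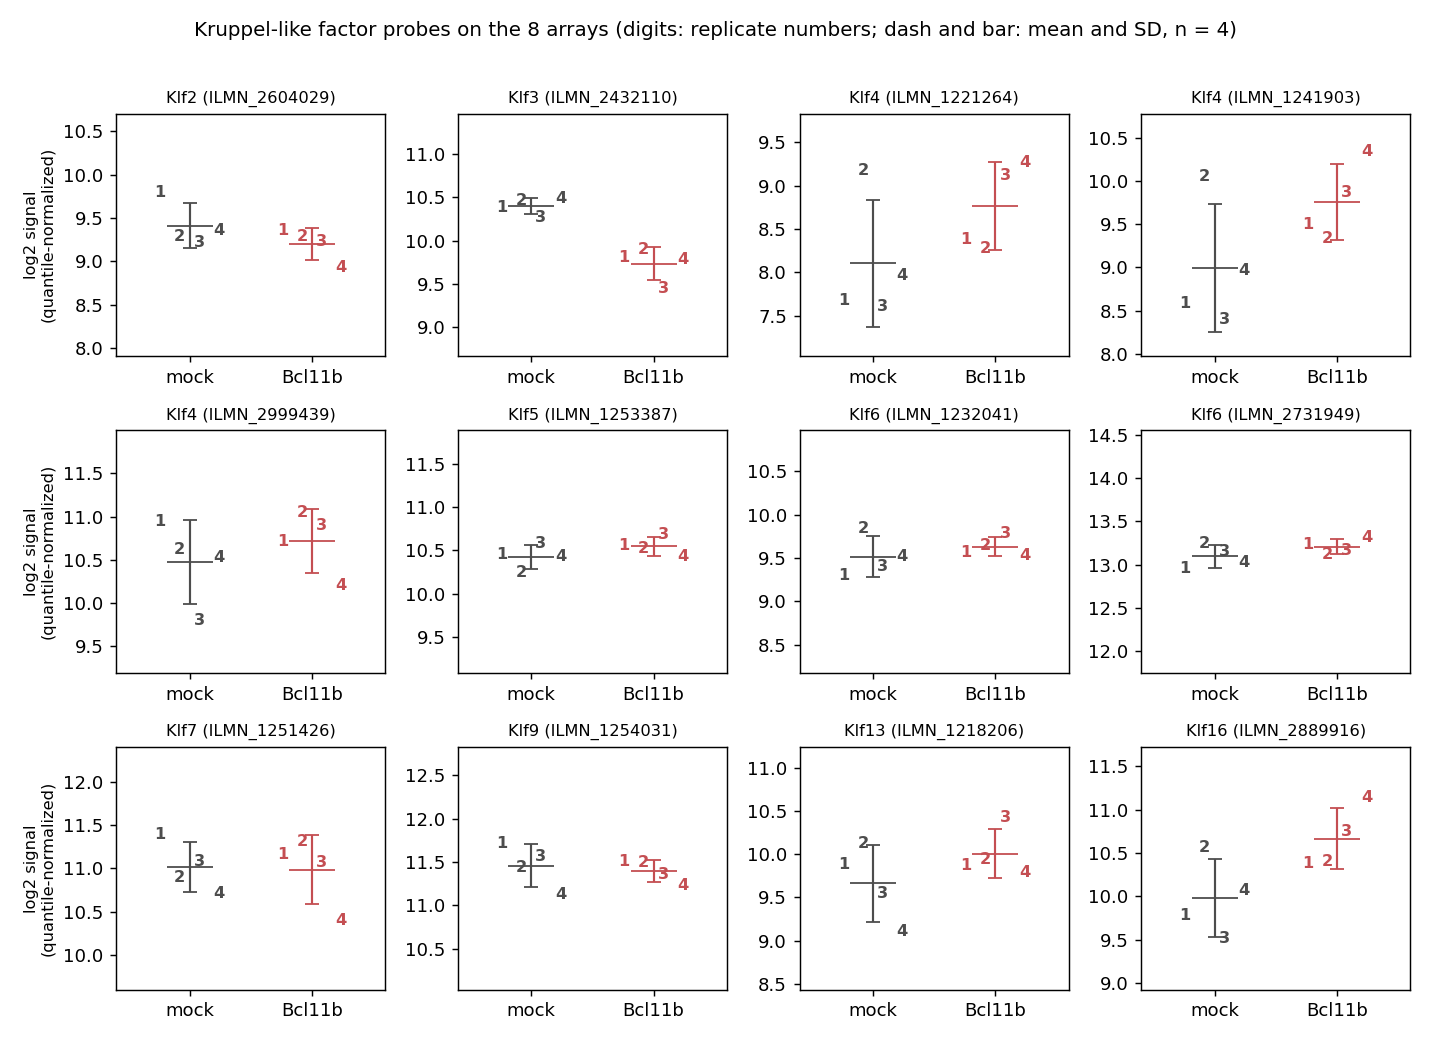
Quantile-normalized log2 signal of the 12 detected Klf probes on each array, with mock and Bcl11b groups on the horizontal axis, digits for the replicate numbers, a dash for the mean and a bar for the SD (n = 4). Every panel spans the same range of log2 units. The groups are apart for Klf3 and overlap for all other probes, and mock replicate 2 lies near the Bcl11b arrays on the Klf4 probes ILMN_1221264 and ILMN_1241903.

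By the pattern over the 8 arrays, the 3 genes whose probes were most like Klf3 among the 9359 other probes detected on all arrays were Per2, a circadian clock repressor (Pearson r = 0.975), Epm2aip1 (r = 0.971) and Slc35a1, a Golgi transporter of CMP-sialic acid (r = 0.967). The highest of so many correlations over 8 arrays in 2 groups is given as a description. Per2 also passed the adjusted threshold (-0.52 on the log2 scale, limma adjusted p = 0.0558), and Epm2aip1 (-0.89, adjusted p = 0.171) and Slc35a1 (-0.43, adjusted p = 0.108) did not.

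The activator members differed little between the groups, or varied among the arrays of a group. Klf2, a factor of resting endothelium and T cells that blood flow induces, had log2 signals of 9.79, 9.29, 9.22 and 9.35 on mock and 9.36, 9.28, 9.23 and 8.93 on Bcl11b arrays. Mock replicate 1 was the highest and Bcl11b replicate 4 the lowest, with the other 6 arrays between 9.22 and 9.36. The log2 fold change was -0.21 (95% interval -0.59 to 0.16, adjusted p = 0.772 from limma). The endothelial markers named above were undetected throughout. Their summed signals, 43.4 to 62.0 on mock and 97.4 to 115.8 on Bcl11b arrays, come from probes below detection and are not read as a change.

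Klf5, which promotes proliferation of epithelial and stem cells, had log2 signals of 10.45, 10.25, 10.58 and 10.43 on mock and 10.56, 10.52, 10.68 and 10.43 on Bcl11b arrays. Its log2 fold change of 0.12 (95% interval -0.080 to 0.32, adjusted p = 0.746 from limma) was measured with a small spread. Its interval does not meet that of Klf3, which ran from -0.92 to -0.41.

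Klf6 is an immediate early gene of injury and growth factor responses and an activator of the cell cycle inhibitor Cdkn1a. On its probe ILMN_2731949 the log2 signals were 12.95, 13.24, 13.15 and 13.03 on mock and 13.23, 13.12, 13.16 and 13.31 on Bcl11b arrays. The groups overlapped, and the log2 fold change was 0.11 (95% interval -0.067 to 0.29, adjusted p = 0.727 from limma). The second probe (ILMN_1232041) gave 0.11 as well (95% interval -0.19 to 0.42, adjusted p = 0.855). Both Klf6 probes therefore pointed the same way with normalized signals. With arrays scaled to a common median ILMN_2731949 was higher by 0.44 (limma unadjusted p = 0.00754, adjusted p = 0.258), and without any normalization both were lower (-0.32 and -0.57).

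Klf7 supports axon growth and the expression of neurotrophin receptors in sensory neurons. It had log2 signals of 11.39, 10.89, 11.07 and 10.71 on mock and 11.15, 11.31, 11.06 and 10.40 on Bcl11b arrays. The lowest array was Bcl11b replicate 4, and the groups otherwise covered the same range. The log2 fold change of -0.032 (95% interval -0.61 to 0.55) changed sign when Bcl11b replicate 4 was left out (0.16) or mock replicate 1 was (0.092), with scaling to a common median (0.057) and with arrayWeights (0.18).

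Klf4, one of the reprogramming factors of pluripotency and a brake on proliferation in differentiated tissues, was carried by 3 probes, of which ILMN_2999439 did not follow the other two. On ILMN_1241903 the log2 signals were 8.58, 10.05, 8.40 and 8.97 on mock and 9.49, 9.33, 9.86 and 10.33 on Bcl11b arrays. On ILMN_1221264 they were 7.67, 9.18, 7.60 and 7.96 on mock and 8.38, 8.28, 9.12 and 9.27 on Bcl11b arrays. On both probes mock replicate 2 was the only mock array to reach into the range of the Bcl11b group, and the other 3 mock arrays lay below all 4 Bcl11b arrays.

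The third Klf4 probe, ILMN_2999439, read 10.95, 10.62, 9.81 and 10.53 on mock and 10.71, 11.05, 10.90 and 10.20 on Bcl11b arrays. It placed mock replicate 1 highest among the mock arrays, and Bcl11b replicate 4, the highest array on the other probes, lowest in its group. The log2 fold changes were 0.76 (95% interval -0.25 to 1.76, adjusted p = 0.66 from limma), 0.66 (-0.38 to 1.70, adjusted p = 0.719) and 0.24 (-0.47 to 0.95, adjusted p = 0.903). None passed a threshold with all arrays. Without mock replicate 2, ILMN_1241903 was higher by 1.12 (unadjusted p = 0.0101, adjusted p = 0.182) and ILMN_1221264 by 1.03 (unadjusted p = 0.0175, adjusted p = 0.234), so the unadjusted call depends on that array. Which transcripts the 3 probes read cannot be seen from the table, which pairs probes with symbols only.

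**Figure D2:**
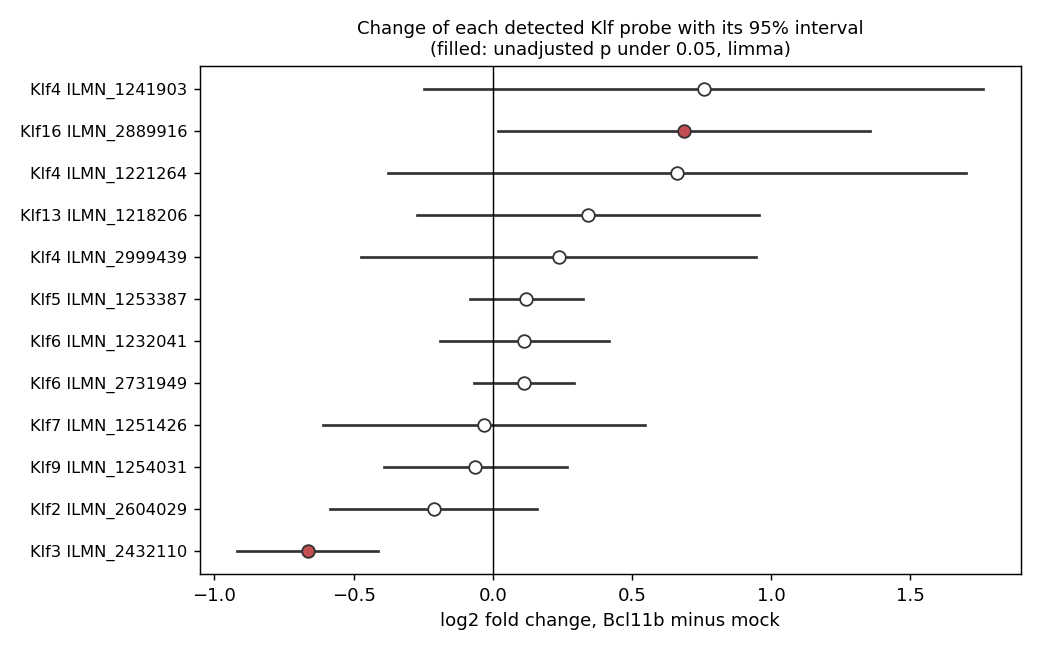
Log2 fold change (Bcl11b minus mock) of the 12 detected Klf probes with the 95% interval from limma, ordered by size, with filled points for an unadjusted p under 0.05. Klf3 lies at -0.66 and Klf16 at 0.69, and the intervals of all other probes include 0.

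Among the members that bind Sin3a, Klf16 was the one with the largest difference. Klf16 was first described as a dopamine receptor regulating factor and is known from the striatum. Its log2 signals were 9.78, 10.56, 9.51 and 10.07 on mock and 10.38, 10.40, 10.75 and 11.14 on Bcl11b arrays. Mock replicate 2 lay above Bcl11b replicates 1 and 2, and the other 3 mock arrays lay below the Bcl11b group. The increase was 1.61-fold (95% interval on the log2 scale 0.018 to 1.36, unadjusted p = 0.0458 and adjusted p = 0.467 from limma). It no longer passed 0.05 in 9 of the 18 settings, with log2 fold changes from 0.0044 without normalization between arrays to 0.88 without mock replicate 2, which gave the smallest p (unadjusted 0.0128). The 3 genes most like Klf16 over the 8 arrays were Pcbp3 (r = 0.990), Gtse1 (r = 0.985) and Zfp162 (r = 0.985), none of which passed the adjusted threshold (adjusted p = 0.402, 0.395 and 0.441 from limma).

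Klf13, which drives Ccl5 in T cells, read 9.88, 10.13, 9.55 and 9.11 on mock and 9.87, 9.94, 10.43 and 9.79 on Bcl11b arrays. Mock replicate 4 was the lowest array and Bcl11b replicate 3 the highest. The log2 fold change was 0.34 (95% interval -0.27 to 0.96, adjusted p = 0.785 from limma).

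Klf9, which glucocorticoids and thyroid hormone induce in neurons, read 11.71, 11.44, 11.56 and 11.12 on mock and 11.51, 11.49, 11.36 and 11.23 on Bcl11b arrays. All Bcl11b arrays lay inside the mock range. The log2 fold change was -0.062 (95% interval -0.39 to 0.27), and it became 0.061 with scaling to a common median.

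Klf10, the early response gene of TGF-beta, was not detected on any array. Its deposited signals ran from -33.0 to 10.4 and its detection p-values from 0.179 to 0.784, so no fold change is given. The 11 probes of Klf1, Klf8, Klf11, Klf12, Klf15 and Klf17 were not detected either, apart from Klf1 on 1 mock array.

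The members split by how much they varied among arrays of the same treatment. The pooled SD within groups was 0.11 and 0.18 for the Klf6 probes, 0.12 for Klf5 and 0.15 for Klf3, all under the median of 0.26 over the 9360 detected probes. It was 0.61, 0.63 and 0.43 for the 3 Klf4 probes, 0.41 for Klf16, 0.37 for Klf13 and 0.35 for Klf7. The Klf4 probes ILMN_1241903 and ILMN_1221264 stood at the 94th and 95th percentiles of all detected probes, and Klf6 ILMN_2731949 at the 4th. The pattern was shared by some of these probes. Mock replicate 2 was the highest mock array and Bcl11b replicate 4 the highest Bcl11b array on ILMN_1241903, ILMN_1221264 and Klf16, while Klf7 was lowest on replicate 4 of both groups. Bcl11b replicate 4 is also the array with the lowest correlation to its group.

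**Figure D3:**
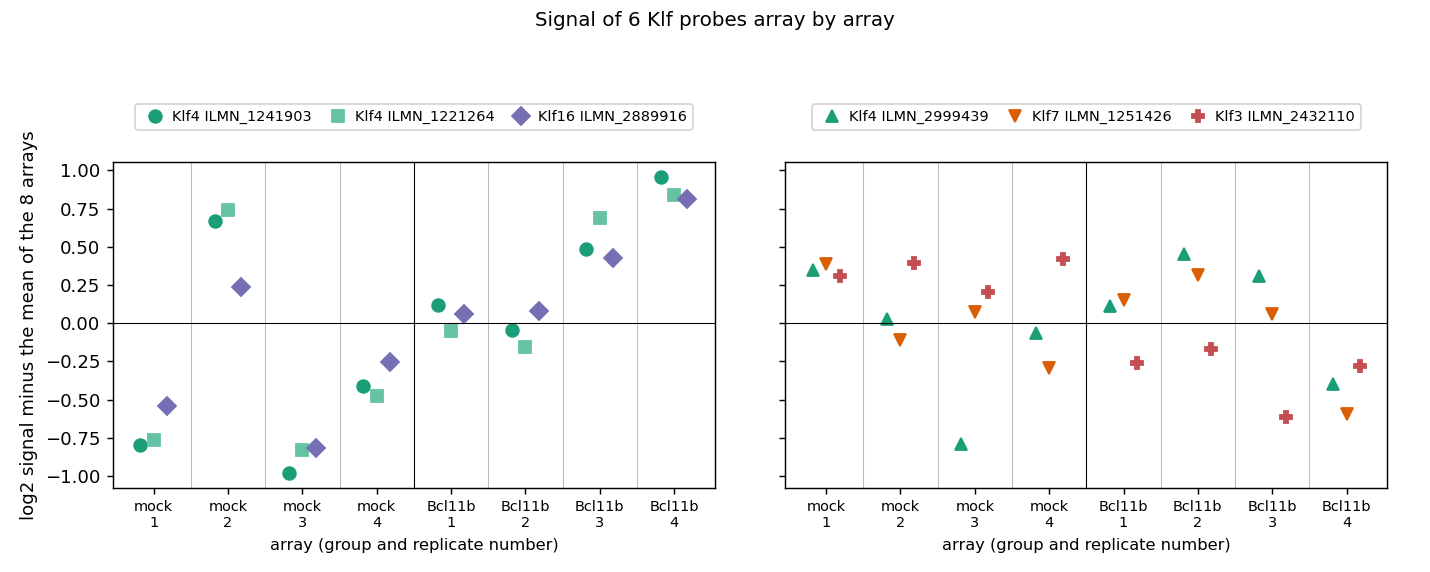
Quantile-normalized log2 signal of 6 Klf probes minus the mean of the probe over the 8 arrays, with the arrays on the horizontal axis and one marker for each probe. On the left, Klf4 ILMN_1241903, Klf4 ILMN_1221264 and Klf16 are all high on mock replicate 2 and on Bcl11b replicates 3 and 4. On the right, the third Klf4 probe and Klf7 are low on Bcl11b replicate 4, and Klf3 is above 0 on every mock array and below 0 on every Bcl11b array.

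The direction of the small changes differed between settings. Without normalization between arrays the median log2 fold change over all 25697 probes was -0.49. This median includes probes set to the floor, as 30.6% to 31.6% of the signals on each array were at or below 0. Detected probes could move further, for example Klf5 from 0.12 to -0.57 and Klf16 from 0.69 to 0.0044. Values relative to the median are therefore not centred on the detected probes. Relative to that median Klf3 was at -0.86, Klf2 at -0.42, and Klf7 and Klf9 both at -0.20. Klf16 was at 0.50, Klf13 at 0.15, the Klf6 probes at 0.17 and -0.082, and the Klf4 probes at 0.55, 0.44 and 0.061. Klf3 thus had the largest fall of the 12 detected probes on the deposited signals as well as on the normalized ones. With arrays scaled to a common median, 2 member probes were higher (Klf16 and Klf6 ILMN_2731949) and Klf3 was lower at the unadjusted threshold.

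**Figure D4:**
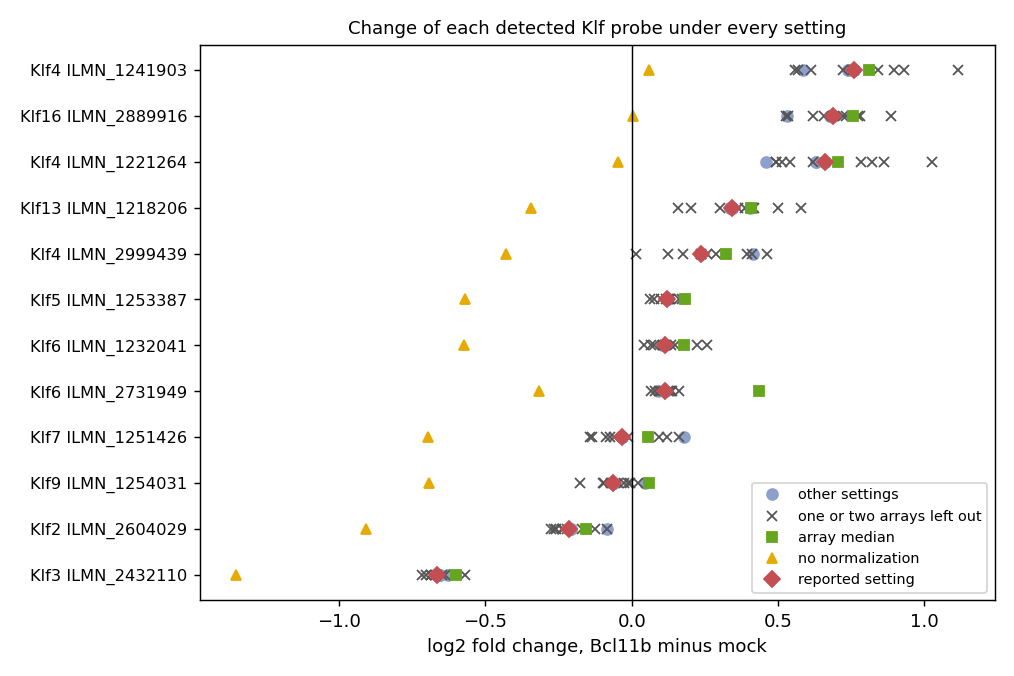
Log2 fold change (Bcl11b minus mock) of each detected Klf probe under the reported setting (diamonds) and under every alternative. Klf3 stays below -0.5 in all settings, whereas Klf7 and Klf9 lie on both sides of 0 among the normalized settings as well. The triangles, without normalization between arrays, are shifted to the left for every probe. Only there do Klf4 ILMN_1221264 and ILMN_2999439, Klf5, both Klf6 probes and Klf13 fall below 0.

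Genes that act with Klf factors were taken from 9 lists, the further Klf genes among them, covering family relatives, partners, regulators and described targets. A list probe was read where it was detected on all arrays of at least 1 group, which left 64 probes. At an unadjusted p under 0.05 with a log2 change of at least 0.32, 5 of them were higher and 9 were lower. This was 21.9% against 15% of all 10110 probes detected in the same way (10.7% lower and 4.27% higher). The counts are of probes and not of genes, as 3 of the higher probes belong to Cdkn1a and the lower ones include both Tgfbr1 probes read. Of these, Tgfbr1 ILMN_2980532 was read only through its detection on mock arrays, where it was higher. The difference in share was not tested. The median log2 fold change of the 64 was -0.049. In the alternative settings, a list probe was said to lose the call where its unadjusted limma p was no longer under 0.05, with no fold threshold applied.

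The clearest change among them was that of Fbxw7, the substrate receptor of an SCF ubiquitin ligase that marks Klf2, Klf5, Myc and cyclin E for degradation. Its detected probe (ILMN_2681824) had log2 signals of 9.88, 9.84, 9.89 and 9.79 on mock and 10.33, 10.44, 10.36 and 10.41 on Bcl11b arrays. The arrays of each group lay close together. Every Bcl11b array was above every mock array, as for 2.5% of all probes detected on all arrays. The increase was 1.45-fold, or 0.54 on the log2 scale with a standard error of 0.033 (limma adjusted p = 0.00297). Its unadjusted limma p was under 0.05 in 17 of 18 settings, with the adjusted p from 0.00607 to 0.774. The exception was the fit without normalization between arrays, where it was at -0.16 and the median of all probes at -0.49. The other 2 Fbxw7 probes were not detected on any array. The remaining probes of this list, for Wwp1 (0.30), Smurf2 (0.43), Siah1a (-0.20) and Btrc, did not pass.

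Sp factors, which share the zinc finger block and the GC box with the Klf family, had 5 probes detected in a group. Sp8, a factor of forebrain patterning, was lower (-0.60 on the log2 scale, limma adjusted p = 0.157) and Sp6 was higher on 1 of its probes (0.43, adjusted p = 0.199), each with groups that did not overlap. The groups did not overlap for 9.88% of all probes detected on all arrays (7.38% lower and 2.5% higher). Sp6 was at -0.31 without normalization between arrays, where the median of all probes was at -0.49. Sp1 (0.41, limma adjusted p = 0.499) and Sp2 (0.98, limma adjusted p = 0.549) did not pass. The Sp2 probe was detected on 2 mock and 4 Bcl11b arrays and was read only through the Bcl11b group. None of the 7 corepressor probes passed both the p and the fold threshold. Hdac1, a deacetylase of the Sin3 complex, was above mock on every Bcl11b array by 0.27 on the log2 scale (unadjusted p = 0.00563, adjusted p = 0.215), which is under the fold threshold. Sin3a (-0.23) and Hdac3 (-0.15) did not pass. Neither did Fhl3 (1.31), a LIM protein that partners Klf3. Fhl3 was detected on 2 mock and 4 Bcl11b arrays, with a mock SD of 1.30, and was read only through the Bcl11b group. Of 4 coactivator probes 1 passed, Wbp2, a WW domain-binding protein, which was lower by 0.35 (log2 fold change -0.35, adjusted p = 0.309), and which lost the call with the replicate block and with scaling to a common median, where it was at 0.024. Ep300 (0.30), Kat2b (0.13) and Wdr5 (-0.10) did not pass.

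Among the regulators, the 10 probes read for the kinases and Mef2 factors upstream of Klf2 and Klf4 held none that passed, with log2 fold changes from -0.44 (a Krit1 probe) to 0.44 (a Mef2a probe). Ccm2 was at 0.17 and Pdcd10 at -0.16. In the TGF-beta list, upstream of Klf10, 4 of 10 probes were lower and none was higher, beside 10.7% lower and 4.27% higher among all probes read in the same way. The count includes the Tgfbr1 probe ILMN_2980532, which was read only through its detection on mock arrays, where it was higher. Tgfb2, a TGF-beta ligand, fell from 9.61 ± 0.062 to 9.12 ± 0.20 (SD, n = 4 each, log2 fold change -0.48, limma adjusted p = 0.169) and Tgfb3, another ligand, from 7.59 ± 0.21 to 7.17 ± 0.042 (log2 fold change -0.42, adjusted p = 0.219). The type I receptor gene Tgfbr1 was lower on both probes read. ILMN_2602711 had a log2 fold change of -0.40 (adjusted p = 0.347) and lost the call with scaling to a common median and without mock replicate 4. ILMN_2980532 was detected on all 4 mock arrays but on none of the Bcl11b arrays. It was at least 1.55-fold lower when set against the dimmest detected signal of each Bcl11b array, a bound that was not itself tested. The limma adjusted p of 0.157 belongs to the fit that used its undetected Bcl11b signals. None of the 4 probes passed the adjusted threshold, and Klf10 itself was not detected.

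Of 6 probes for glucocorticoid genes that respond with Klf9, Fkbp5, a chaperone partner of the glucocorticoid receptor, was lower (-0.38, limma adjusted p = 0.428) and lost the call in 7 of the 18 settings. The other 5 did not pass, with Tsc22d3 at -0.27, Sgk1 at -0.18 and Dusp1 at -0.052.

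Of 17 probes for genes described as Klf targets, 3 were higher and 2 were lower, beside 4.27% higher and 10.7% lower among all probes read in the same way. All 3 that were higher belong to 1 gene, Cdkn1a, the cell cycle inhibitor p21, which Klf4 and Klf6 are known to activate. Cdkn1a probe ILMN_2634083 read 11.52, 10.88, 11.24 and 11.02 on mock and 11.93, 11.94, 11.74 and 11.75 on Bcl11b arrays. All Bcl11b arrays were above all mock arrays on each of the 3 probes, with log2 fold changes of 0.67, 1.00 and 1.43 (adjusted p = 0.174, 0.131 and 0.192 from limma). Among all probes detected on all arrays, 2.5% had every Bcl11b array above every mock array. The 3 Cdkn1a probes read 1 gene in the same samples. All 3 lost the call without normalization between arrays, where the lowest was 0.060 and the median of all probes was at -0.49. Sphk1, a sphingosine kinase, was lower (log2 fold change -0.57, adjusted p = 0.218), as was Bhlhb2, a clock-related repressor (-0.39, adjusted p = 0.399), which lost the call in 6 of the 18 settings. Bhlhb2 and the following genes were chosen after their values were seen. Ccl5, the described target of Klf13, was higher by 1.68 with an SD of 0.90 and 1.17 in the groups (adjusted p = 0.493) and did not pass. Galectin-3 (Lgals3), described as a target of Klf3, was at -0.11 with overlapping groups.

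**Figure D5:**
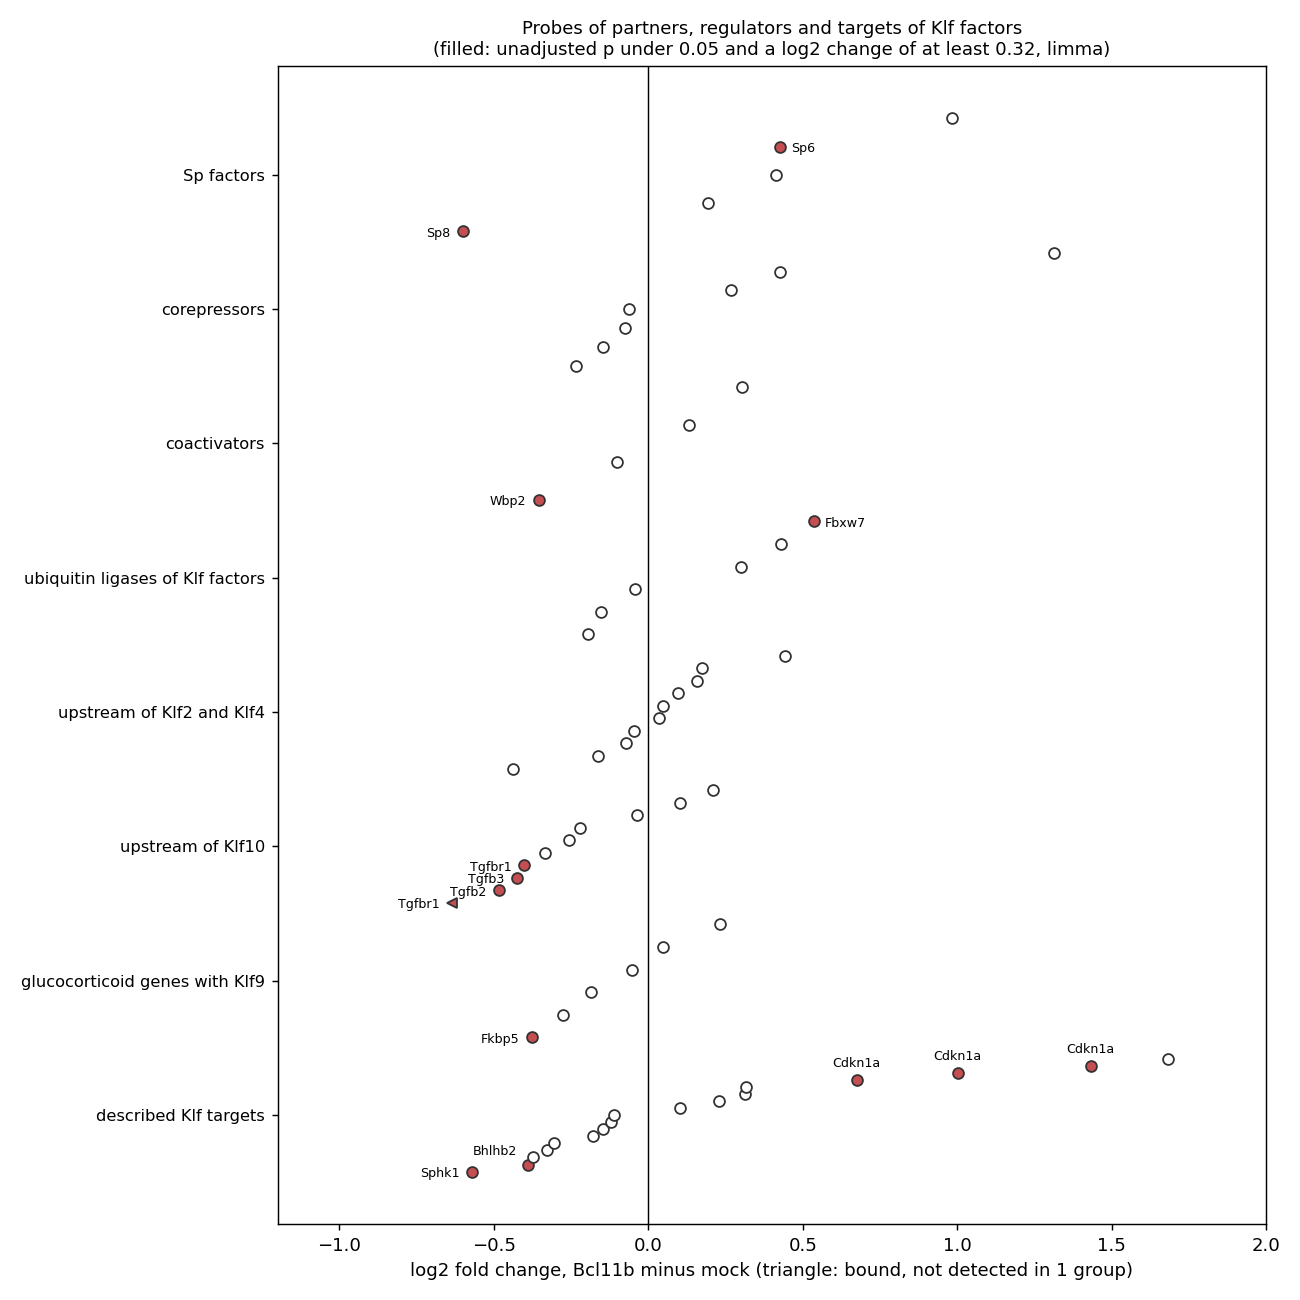
Log2 fold change (Bcl11b minus mock) of the probes of partners, regulators and described targets of Klf factors, 1 row for each list, with filled points past the unadjusted p and fold threshold. A triangle marks a probe not detected on any Bcl11b array, drawn at its bound. The TGF-beta list (upstream of Klf10) has 4 filled points, all below 0, among them both Tgfbr1 probes read. Its triangle is a Tgfbr1 probe read only through its detection on mock arrays, and filled by the fit that used its undetected Bcl11b signals. The 3 Cdkn1a probes lie between 0.67 and 1.43.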

How the data were processed

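The RNA of 4 mock and 4 Bcl11b samples was hybridized to Illumina MouseRef-8 v2 arrays and read with GenomeStudio. The authors deposited 1 average bead signal per probe, an intensity after background subtraction and without normalization between arrays, and a detection p-value per probe against negative control beads. Quantile normalization, a floor of 1, log2 transformation and limma (version 3.58.1 in R 4.3.3, lmFit and eBayes, no covariate) were applied to all 25697 probes, and the code was tested on simulated data. A floor sets the fold change of dim probes, so none is given for a probe detected on no array. Precision is limited by having 4 arrays in each group. The samples are different sets of transfected cells of 1 line.

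Members and lists were chosen with earlier results of these data known. All member probes are named. From each list, probes past an adjusted p of 0.10 and then the smallest p-values, up to 4, are named, with further ones as examples chosen after their values were seen. Older symbols were matched through RefSeq (GRCm38.p6) where they name 1 gene. Alternatives were other normalizations, an offset of 16, detection filters, a replicate block, limma-trend together with robust eBayes, arrayWeights and leaving out arrays. Leaving out mock replicate 2 together with Bcl11b replicate 4, and matching by current symbols only, were added after seeing the data. No probe sequences were used.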

Additional observations from a re-analysis of the deposited data

How the results depend on the processing

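Klf3 was lower in all 18 settings and Klf2 in all 18, while Klf16 was higher in all 18 and passed an unadjusted 0.05 in 9. The number of member probes past the unadjusted p and fold threshold, 2 in the report, was 4 without normalization between arrays, 3 with scaling to a common median (division by the array median), 1 with arrayWeights and 1 at an adjusted p under 0.10. It lay between 1 and 4 with single arrays left out, 4 being reached without mock replicate 2, and was 4 without mock replicate 2 and Bcl11b replicate 4 together. With current symbols only it stayed at 2. The replicate block left 1 member probe (Klf3, limma adjusted p = 0.158), since Klf16 had an unadjusted p of 0.0911 there. The labels give replicate numbers without saying whether they pair the samples. The deviations of same-numbered arrays over 9360 probes correlated at 0.677, -0.630, 0.182 and 0.695, and these mixed values do not settle it.

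Over all probes, 252 (91 higher and 161 lower) passed an adjusted p under 0.10 in the report, against 57 without normalization, 146 (100 higher and 46 lower) with division by the array median, 413 with neqc, 45 with the replicate block, 45 with limma-trend and robust eBayes together and 642 with arrayWeights. With single arrays left out the count lay between 87 and 637, and without mock replicate 2 and Bcl11b replicate 4 it was 428. Of the list probes, 14 passed in the report, 34 without normalization, and 11 to 21 with single arrays left out (21 with both arrays left out).

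Without normalization the direction reversed for Klf4 (-0.43 and -0.048), Klf5 (-0.57), Klf6 (-0.32 and -0.57) and Klf13 (-0.34), the median of all probes being at -0.49. Klf7 reversed to 0.057 with the array median, 0.18 with arrayWeights, 0.092 without mock replicate 1, 0.16 without Bcl11b replicate 4 and 0.12 without both arrays named above. Klf9 reversed to 0.061, 0.045 and 0.021 under the array median, arrayWeights and without mock replicate 1. With single arrays left out Klf7 ran from -0.14 to 0.16 and Klf9 from -0.18 to 0.021. The cause was not tested.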
